A study of Mus musculus with 41 samples.

Results

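The genes examined here were those that encode the chains of collagen, measured by mRNA sequencing in the tibial diaphysis of young and old mice. Members were the protein-coding genes whose symbol consisted of Col, a type number, the letter a and a chain number, with at least 41 reads summed over all mice. This rule gave 44 of the 43346 genes in the table, spread over 27 collagen types and 15 chromosomes. The least counted member, Col19a1, had 395 reads in all, and every member passed the filter on low counts.

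All 41 mice, which are named here by the number in their titles, carried the INK-ATTAC transgene on a C57BL/6 background, and all were female. INK-ATTAC is a suicide construct driven by a fragment of the p16Ink4a promoter, and the compound AP20187 (AP) triggers it in cells that use that promoter. The old mice received either vehicle (13 mice) or AP at 10 mg per kg body mass (16 mice), from 20 months of age for 4 months, and were therefore 24 months old at the end. The 12 young mice were labelled as vehicle mice, with an age given as 6 to 12 months, whereas the methods of the study name only the lower of these ages. Since every group carried the transgene, no group shows the level of a gene without it. Nothing in the labels named a batch, a litter or a day, so that any difference in handling between the groups cannot be told apart from age or treatment.

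Collagens are extracellular proteins whose chains wind around each other into a triple helix, a shape that needs a glycine at regular intervals along the whole helical stretch. In bone, type I collagen made by osteoblasts forms the fibrils on which mineral is deposited, and small amounts of types V and XI sit inside fibrils and set their width. Fibril-associated collagens (FACITs) attach to the surface of fibrils, type IV builds the sheets of basement membranes, type VI makes beaded filaments around cells, and types II, IX, X and XI are best known from cartilage.

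This repeat was visible in the coding sequences of the members. Glycine codons begin with GG, so one exon of 54 bases from a fibril-forming chain reads as 6 triplets of codons that each open with GG. Such exons are shown for the main bone collagen gene Col1a1 (chr11:94939904-94939957, plus strand, coding exon 8 of 51) and for the 2 members with the largest decreases in old vehicle mice, Col3a1 (chr1:45325360-45325413, plus strand, coding exon 6 of 51) and Col11a1 (chr3:114108281-114108334, plus strand, coding exon 15 of 67). The coordinates are those of GRCm38 with the GENCODE M21 annotation, and the capitals mark the GG that opens each triplet of codons.
Col1a1: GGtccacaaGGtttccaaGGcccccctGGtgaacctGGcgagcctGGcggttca
Col3a1: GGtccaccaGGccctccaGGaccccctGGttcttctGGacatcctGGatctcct
Col11a1: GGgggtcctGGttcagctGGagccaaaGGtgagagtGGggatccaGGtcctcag

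All 44 members held an unbroken run of at least 23 codon triplets that opened with GG, with a median longest run of 58.5 triplets and a maximum of 344. Of 21273 other protein-coding genes, 19 reached a run of 20, and their median was 2. The 11 fibril-forming chains had the longest runs, from 216 to 344 triplets, and their exons were the most uniform, since 305 of 649 coding exons (47%) had exactly 54 bases. Over all members that share was 23.4%, against 0.444% of the coding exons of other genes. Runs were shorter, at 39 to 66 triplets, in the 6 type IV genes, and 4.05% of their coding exons had 54 bases.

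Sequencing depth was 37028959 to 75942717 reads assigned to genes per mouse (median 47774880), and any pair of mice of a group differed by at least 33.01 times the variance of counting alone, so that no mouse appeared to be a repeat of another. Levels are given as CPM, the read count of a gene scaled to a common library size with the trimmed mean method. A gene was called when edgeR's quasi-likelihood test, fitted to the 41 mice in 1 model, gave a log2 fold change beyond 0.5 in size and a p under 0.05 after Benjamini-Hochberg adjustment for the 19292 genes tested. The labelled tissue was checked against marker genes: all 7 osteoblast markers (such as Ibsp and Bglap) and all 6 osteocyte markers (such as Dmp1 and Sost) were detected. Summed within each mouse, they had medians of 5530 and 1341 CPM in young mice. Markers of skeletal muscle, neutrophils and red cells were also abundant, and their summed levels had medians in young mice of 34932, 10408 and 9398 CPM. The methods of the study state that marrow was removed from the tibiae by centrifugation. Where a gene differs in such mixed tissue, fewer cells of a type and less RNA per cell cannot be told apart.

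Collagen genes took a median of 7.70% of all reads in young mice (3.78 to 10.3%), 3.88% in old vehicle mice (1.49 to 8.74%) and 3.51% in old AP mice (0.776 to 7.37%). The 2 genes of type I collagen supplied most of this, with medians of 6.39%, 3.39% and 2.96% of all reads. The groups overlapped, and the lowest shares were those of old AP mice.

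Compared per kilobase of exonic length, so that long and short genes can be set side by side, the members covered a wide range. Col1a1 led in young mice at a median of 4068 CPM per kilobase (1798 to 5581), followed by Col1a2 at 2937 (1485 to 3838). The order then dropped to Col11a2 at 341 (178 to 504), Col2a1 at 274 (129 to 432), Col11a1 at 222 (114 to 362), Col5a2 at 199 (115 to 293) and Col3a1 at 159 (62.0 to 227). Neighbours in this second tier had overlapping ranges, whereas the lowest young value of Col1a2 was above the highest of Col11a2. Col2a1, the chain of the main cartilage collagen, therefore stood among the 5 highest collagen genes of these diaphyses.

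At the other end, Col17a1, Col4a6, Col6a6 and Col19a1 stayed below 0.1 CPM per kilobase in the median of every group, and Col19a1 was the lowest at 0.0293 in young mice. In each group 29 members reached 1 CPM per kilobase. In old vehicle mice Col3a1 stood at 32.02 CPM per kilobase (10.9 to 186), below Col4a1 at 33.2 (21.7 to 50.8), whereas in young mice its lowest value of 62.0 exceeded the highest of Col4a1, 40.2. The order among neighbours depended on the length used: with the longest transcript in place of all exons, Col3a1 in old vehicle mice was above Col4a1 (56.5 against 34.2 CPM per kilobase), Col1a2 ranked above Col1a1, and the leading 10 members shared 10, 8 and 8 names in young, old vehicle and old AP mice. As a share of the summed medians per kilobase, type I was 80.7%, 85.0% and 83.7% in these 3 groups.

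**Figure D1:**
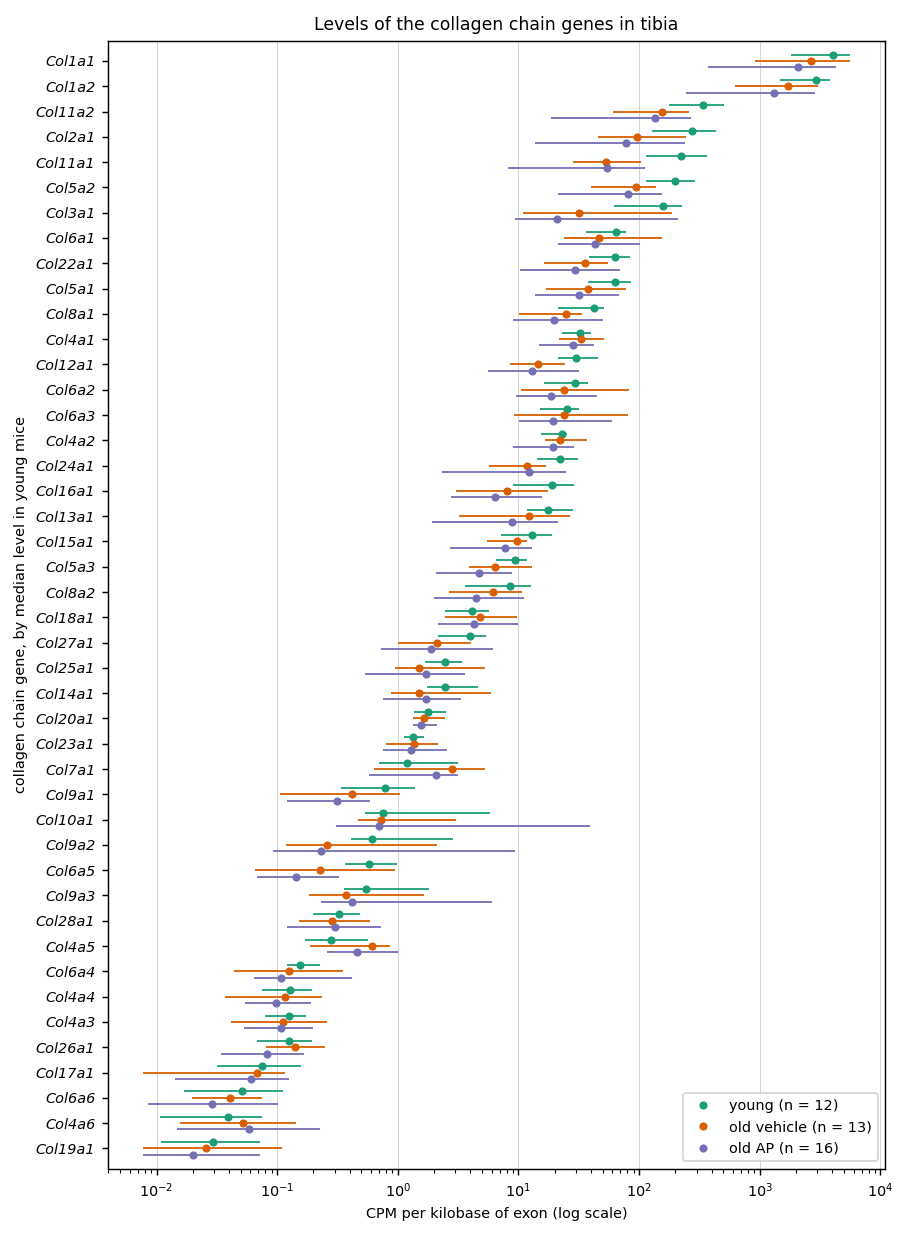
Level of each of the 44 collagen genes in CPM per kilobase of exonic length (log axis), with dots for group medians and lines from the lowest to the highest mouse, a value of 0 being drawn at the smallest nonzero value. Col1a1 and Col1a2 have the highest medians in every group, and Col19a1 has the lowest medians.

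In old vehicle mice, the collagen genes that differed from young mice were mostly fibril-forming and fibril-associated chains, and they were lower. Of the 44 members, 13 were called lower, among them Col3a1, Col11a1, Col11a2, Col2a1, Col5a2 and Col12a1, and 2 were called higher, Col7a1 and Col4a5. The 13 lower members were 29.5% of the list, where 4.76% of all genes tested were called lower. The 2 higher members were 4.55% of it, close to the 4.3% of all genes that were called higher. The median log2 fold change of the members was -0.44, and 34 of 44 were negative, beside a median of 0.01 over all genes tested.

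Old AP mice were compared with the same young mice, so the 2 comparisons with young mice are not independent of each other. Here 20 members (45.5%) were called lower, against 4.85% of all genes, and 2 (4.55%) were called higher, Col4a5 and Col4a6, against 3.73% of all genes. The median log2 fold change was -0.57, and 36 of 44 members were negative, with a median of 0.02 over all genes. All 11 fibril-forming chains were among the lower members.

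Between old AP and old vehicle mice, which share the vehicle group with the first comparison, 0 members were called in either direction by edgeR or by DESeq2. The background here was 0.0259% of all genes called higher and 0.0467% called lower by edgeR, and 0.675% and 0.599% of the genes with an adjusted p by DESeq2. DESeq2 gave Col4a6, Col6a6, Col17a1, Col19a1 and Col26a1 no adjusted p here. By edgeR, 10 of the 44 members had an unadjusted p under 0.05, which is near the share of all genes tested, 23.9%. Of the 44 log2 fold changes, 37 were negative, and their median was -0.25, beside -0.00 over all genes tested. That the old groups miss the threshold does not show that they were alike.

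The summed level of the osteoblast markers also had lower medians in old mice. It was 5530 CPM (3612 to 7163) in young, 3740 (2191 to 6057) in old vehicle and 2990 (1433 to 6949) in old AP mice. Of the 7 osteoblast markers, 3 were called lower in old vehicle and 4 in old AP mice against young mice, and 0 between the old groups. When the summed osteoblast markers entered the model as a covariate, which was chosen after seeing the data, the lower members went from 13 to 5 in old vehicle mice and from 20 to 7 in old AP mice. In the same fit 3.63% of all genes were called lower with vehicle and 1.62% with AP, beside 4.76% and 4.85% without the covariate. Over all genes, the lower calls thus went from 918 to 701 with vehicle and from 935 to 313 with AP. Higher calls took 4.16% and 2.27% of all genes. The 5 members still lower in old vehicle mice were Col3a1, Col11a1, Col12a1, Col16a1 and Col6a5. Of the 7 with AP, these 5 and Col9a1 had been called without the covariate, and Col26a1 was a new call. On the higher side, Col7a1 kept its call with vehicle, Col4a5 lost it, and Col6a3 (0.70, edgeR adjusted p = 0.0125) and Col18a1 (0.73, edgeR adjusted p = 0.0113) gained one, while with AP both higher members lost their calls. The fibroblast and stroma markers, given below, were lower in old mice too and were not entered as a covariate. What part the osteoblast markers had in the decrease was not tested beyond this.

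**Figure D2:**
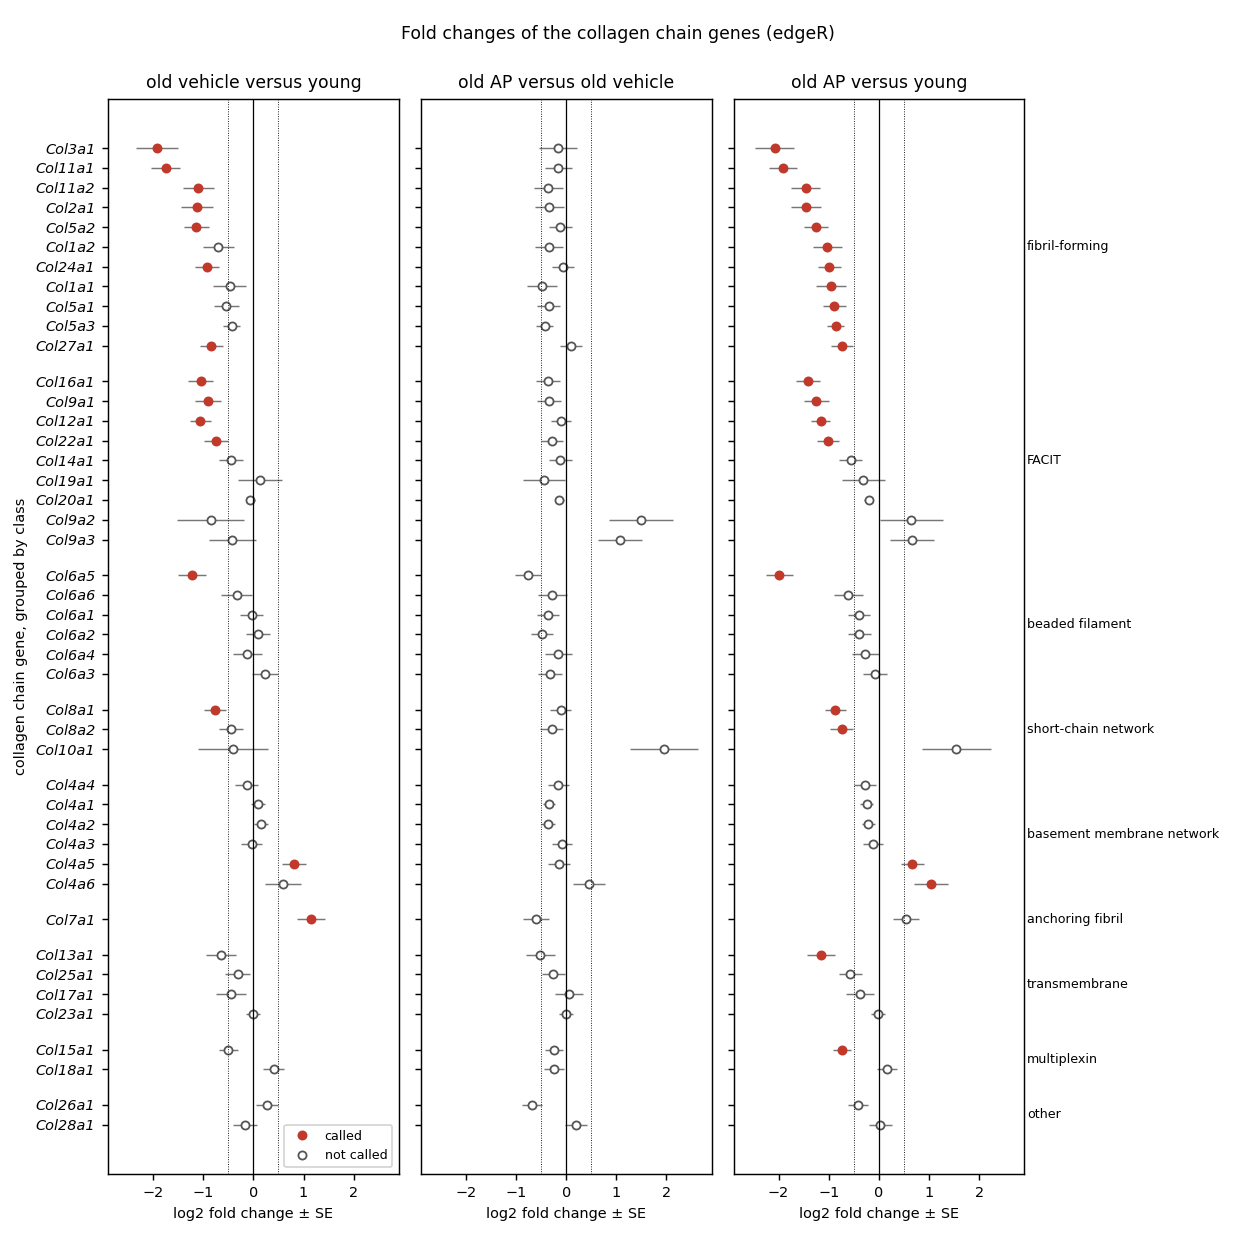
Log2 fold change (edgeR, bars are standard errors) of the 44 collagen genes, grouped by class, for old vehicle against young, old AP against old vehicle and old AP against young mice, with filled red points for called genes and dotted lines at -0.5 and 0.5. Fibril-forming chains lie left of 0 against young mice, with 7 and 11 of 11 called lower, and the middle panel has 0 called genes.

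Type I collagen, the fibril of bone, combines chains from Col1a1 and Col1a2. Col1a1 (ENSMUSG00000001506, chr11:94936224-94953042, plus strand) had 11797, 26700 and 36627 CPM as the lowest, median and highest young values, 6002, 17288 and 36701 in old vehicle mice, and 2460, 13512 and 28143 in old AP mice. The ranges overlapped widely, yet 10 of 13 vehicle mice and 15 of 16 AP mice lay below the young median. The log2 fold change against young mice was -0.48 ± 0.32 (SE, edgeR adjusted p = 0.325) in vehicle mice and -0.96 ± 0.31 (edgeR adjusted p = 0.027) in AP mice, so that a decrease was called only for the latter comparison. With the osteoblast covariate both values changed sign, to 0.30 with vehicle and 0.0759 with AP, and the call was lost. AP against vehicle mice gave -0.48 ± 0.30 (edgeR adjusted p = 0.324). Without old AP mice 18 and 19, which had Col1a1 at 5001 and 4132 CPM, the call against young mice was lost (-0.84, edgeR adjusted p = 0.0603).

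The partner chain Col1a2 (ENSMUSG00000029661, chr6:4504814-4541543, plus strand) had a median of 35644 CPM in young mice (18020 to 46576), of 20731 with vehicle (7501 to 36902) and of 15944 with AP (2978 to 34879). In 12 of 13 vehicle mice and 16 of 16 AP mice its level was below the young median. It fell in AP mice against young mice (-1.03 ± 0.29, edgeR adjusted p = 0.0108), whereas the vehicle mice missed the threshold (-0.70 ± 0.30, edgeR adjusted p = 0.103). The old groups differed by -0.34 ± 0.28 (edgeR adjusted p = 0.464).

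Col3a1 encodes type III collagen, a fibrillar chain of vessels, tendon sheaths and other soft tissue. It (ENSMUSG00000026043, chr1:45311538-45349706, plus strand) had a young median of 1559 CPM (608 to 2225), a vehicle median of 314 (107 to 1823) and an AP median of 205 (91.1 to 2059). Of the old mice, 12 of 13 with vehicle and 15 of 16 with AP lay below the lowest young mouse, and only vehicle mouse 16 (1823 CPM) and AP mouse 10 (2059 CPM) were at young levels. The decrease against young mice was 3.78-fold with vehicle (log2 fold change -1.92 ± 0.42, edgeR adjusted p = 0.00108) and 4.22-fold with AP (-2.08 ± 0.39, edgeR adjusted p = 0.000293). The old groups differed by -0.16 ± 0.38 (edgeR adjusted p = 0.817), a value that turned to 0.35 when vehicle mouse 16 was left out.

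Types V and XI lie within fibrils. Col11a1 (ENSMUSG00000027966, chr3:114030540-114220718, plus strand) was the member whose groups separated completely: the lowest, median and highest levels were 1098, 2143 and 3498 CPM in young mice, 276, 517 and 1004 with vehicle and 79.4, 520 and 1079 with AP. No old mouse reached the lowest young mouse. Of all genes tested, 0.327% lay below every young mouse in all vehicle mice and 0.13% in all AP mice. The log2 fold change against young mice was -1.75 ± 0.29 with vehicle (edgeR adjusted p = 5.36e-05) and -1.91 ± 0.27 with AP (edgeR adjusted p = 5.81e-06). Between the old groups it was -0.16 ± 0.27 (edgeR adjusted p = 0.73). Its partner Col11a2 (ENSMUSG00000024330) had a young median of 2330 CPM (1215 to 3442), a vehicle median of 1067 (411 to 1769) and an AP median of 932 (127 to 1829). Not 1 old mouse reached the median of the young mice, although 5 of 13 and 4 of 16 overlapped the young range. It was lower by -1.10 ± 0.31 (edgeR adjusted p = 0.00953) and -1.46 ± 0.29 (edgeR adjusted p = 0.000559).

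Col2a1 (ENSMUSG00000022483, chr15:97975602-98004695, minus strand), which encodes the fibril of cartilage, had a young median of 1645 CPM (774 to 2591), a vehicle median of 573 (275 to 1469) and an AP median of 468 (82.3 to 1435). Not 1 of the 29 old mice reached the young median. It was lower by -1.12 ± 0.32 with vehicle (edgeR adjusted p = 0.0105) and -1.45 ± 0.30 with AP (edgeR adjusted p = 0.000796). Of 6 listed chondrocyte markers, 5 were tested (Acan, Sox9, Hapln1, Cnmd and Prg4), and 0 of 5 were called in any comparison. Their summed level had medians of 96.5 CPM in young, 139 in old vehicle and 87.9 in old AP mice. The median log2 fold change of the 5 against young mice was -0.29 with vehicle, opposite to the sum, and 1.22 with AP, where mice 18 and 19 had the highest sums.

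Of the 3 chains of type V, Col5a2 (ENSMUSG00000026042) was called lower in both old groups. Its levels were 1104, 1906 and 2813 CPM (lowest, median and highest) in young mice, 383, 906 and 1318 with vehicle and 205, 770 and 1484 with AP. Every old mouse was below the young median, and the log2 fold changes were -1.14 ± 0.25 (edgeR adjusted p = 0.00133) and -1.25 ± 0.24 (edgeR adjusted p = 0.000331). Col5a1 (ENSMUSG00000026837), with medians of 535 (321 to 730), 319 (145 to 655) and 272 CPM (116 to 580) in young, vehicle and AP mice, was called lower with AP (-0.89 ± 0.23, edgeR adjusted p = 0.00731). For vehicle mice the value was -0.54 ± 0.25 (edgeR adjusted p = 0.122). Col5a3 (ENSMUSG00000004098) was likewise called with AP alone, with medians of 64.2 (44.7 to 79.8), 43.5 (26.7 to 88.4) and 32.4 CPM (14.2 to 60.2), -0.43 ± 0.17 with vehicle (edgeR adjusted p = 0.0755) and -0.86 ± 0.17 with AP (edgeR adjusted p = 0.000353).

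The minor fibril-forming chains of types XXIV and XXVII were lower in both old groups. Col24a1 (ENSMUSG00000028197), known from developing bone, had medians of 170 (109 to 238), 89.3 (43.8 to 129) and 93.1 CPM (17.8 to 189) in young, vehicle and AP mice. The overlap with young mice was small, since 11 of 13 vehicle and 14 of 16 AP mice lay below the lowest young mouse, and the changes were -0.93 ± 0.24 (edgeR adjusted p = 0.00503) and -0.99 ± 0.23 (edgeR adjusted p = 0.00213). Col27a1 (ENSMUSG00000045672), known from growth plate cartilage, had medians of 51.3 (28.2 to 70.3), 27.5 (13.1 to 52.8) and 24.6 CPM (9.5 to 80.7). One AP mouse exceeded the highest young mouse, and the changes were -0.84 ± 0.23 (edgeR adjusted p = 0.00896) and -0.74 ± 0.22 (edgeR adjusted p = 0.0163).

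**Figure D3:**
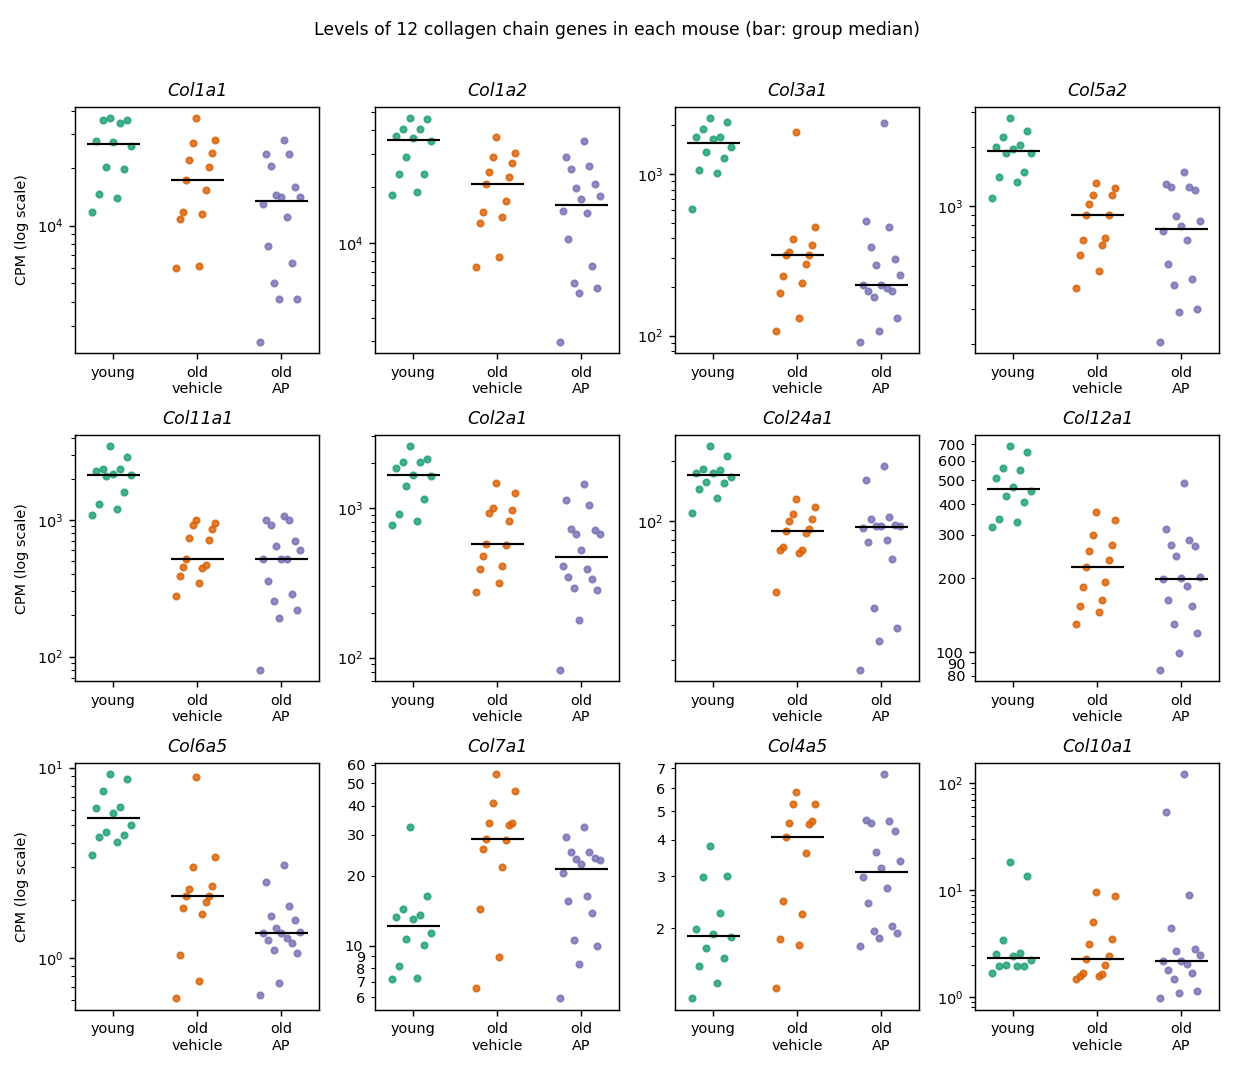
CPM (log axis) of 12 collagen genes in each of the 41 mice, by group, with a bar at the group median. Col11a1 has no old mouse within the young range, Col3a1 has 2 old mice there, and Col10a1 has 2 old AP mice far above all other mice.

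Promoter sequences from RefSeq on GRCm38.p6, 250 bases before to 50 after each start, were found for 35 of the 44 members. They are shown for members of both directions whose calls the text turns on, with capitals where a script found, on either strand, the letters TATAAA (the TATA box), or CCAAT (the CCAAT box), or GGGCGG (the GC box). The promoter of Col3a1 lies at chr1:45311288-45311587, of Col11a1 at chr3:114030290-114030589, of Col1a2 at chr6:4505368-4505667, of Col7a1 at chr9:108953336-108953635 and of Col4a5 at chrX:141475169-141475468, all on the plus strand.
Col3a1: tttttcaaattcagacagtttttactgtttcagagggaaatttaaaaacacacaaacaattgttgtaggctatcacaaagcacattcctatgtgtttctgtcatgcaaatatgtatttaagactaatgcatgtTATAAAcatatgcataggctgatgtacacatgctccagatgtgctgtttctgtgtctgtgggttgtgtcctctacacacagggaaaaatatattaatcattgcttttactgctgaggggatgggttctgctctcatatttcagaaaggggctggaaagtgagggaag
Col11a1: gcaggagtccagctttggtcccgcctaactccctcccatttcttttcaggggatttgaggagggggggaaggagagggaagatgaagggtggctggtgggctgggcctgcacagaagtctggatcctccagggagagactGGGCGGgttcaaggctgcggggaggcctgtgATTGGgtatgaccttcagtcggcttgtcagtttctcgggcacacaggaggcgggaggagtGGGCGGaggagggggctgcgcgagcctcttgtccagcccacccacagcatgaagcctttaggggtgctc
Col1a2: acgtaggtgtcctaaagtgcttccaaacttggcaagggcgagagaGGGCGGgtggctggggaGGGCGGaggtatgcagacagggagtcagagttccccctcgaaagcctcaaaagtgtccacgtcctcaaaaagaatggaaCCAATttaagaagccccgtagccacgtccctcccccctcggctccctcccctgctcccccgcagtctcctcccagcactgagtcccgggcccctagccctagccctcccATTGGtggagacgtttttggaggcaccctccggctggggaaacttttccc
Col7a1: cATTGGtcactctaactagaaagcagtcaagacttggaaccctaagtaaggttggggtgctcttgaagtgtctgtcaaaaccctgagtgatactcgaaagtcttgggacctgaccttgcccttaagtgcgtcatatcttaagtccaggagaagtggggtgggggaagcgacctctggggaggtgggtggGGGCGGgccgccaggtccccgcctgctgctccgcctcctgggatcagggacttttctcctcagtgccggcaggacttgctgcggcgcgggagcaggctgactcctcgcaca
Col4a5: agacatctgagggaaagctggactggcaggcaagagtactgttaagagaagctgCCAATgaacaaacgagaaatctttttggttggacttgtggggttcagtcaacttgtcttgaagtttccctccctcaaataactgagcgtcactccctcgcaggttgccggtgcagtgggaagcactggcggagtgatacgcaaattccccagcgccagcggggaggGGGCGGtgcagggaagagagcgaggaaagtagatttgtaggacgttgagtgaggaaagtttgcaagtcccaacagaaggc

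The Col3a1 promoter held the letters TATAAA 117 bases before its start and none of the other letters searched, and at 37.7% it had the lowest GC content of the members' promoters (37.7 to 75%, median 59.8%, beside 52.7% over all promoters). On both strands, GGGCGG was present in the promoters of 22 of 35 members and in 35.7% of all 32851 promoters, CCAAT in 13 of 35 and 37.4%, and TATAAA in 5 of 35 and 13.6%. The core letters of the RUNX motif, TGTGGT, were in 3 of 35 and 16.8%, and those of the AP-1 motif, TGAGTCA, in 1 of 35 and 5.2%. Of the members called lower in any comparison, 15 had a promoter, and of these 10 held the GC box, 5 the CCAAT box, 3 the TATA box, 1 the RUNX letters and 0 the AP-1 letters. A match describes the letters of a window and is not a site. The 9 members not matched were Col1a1, Col2a1, Col4a3, Col5a2, Col9a3, Col12a1, Col14a1, Col22a1 and Col26a1.

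Among the 9 FACIT chains, 4 were called lower in both old groups against young mice. Col12a1 (ENSMUSG00000032332), whose protein bridges fibrils in tendon, ligament and bone surfaces, had medians of 460 (324 to 690), 221 (130 to 373) and 199 CPM (84.4 to 486) in young, vehicle and AP mice. All but 2 vehicle mice and 1 AP mouse lay below the lowest young mouse, and the changes were -1.06 ± 0.21 (edgeR adjusted p = 0.00036) and -1.16 ± 0.20 (edgeR adjusted p = 6.42e-05). Col16a1 (ENSMUSG00000040690), a minor chain of several connective tissues, had medians of 127 (60.6 to 195), 53.9 (20.5 to 118) and 43.1 CPM (18.7 to 106). Every old mouse was below the young median, with changes of -1.05 ± 0.25 (edgeR adjusted p = 0.00277) and -1.42 ± 0.24 (edgeR adjusted p = 6.42e-05).

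Col22a1 (ENSMUSG00000079022), a chain of tissue junctions such as those between muscle and tendon, had medians of 583 (353 to 780), 331 (151 to 504) and 272 CPM (94.1 to 642). It was lower by -0.74 ± 0.23 (edgeR adjusted p = 0.021) with vehicle and -1.02 ± 0.22 (edgeR adjusted p = 0.00129) with AP, although 5 of 13 and 4 of 16 old mice reached the young range. Col9a1 (ENSMUSG00000026147), 1 of the 3 chains of the cartilage collagen type IX, was scarce, at medians of 3.94 (1.72 to 7.08), 2.11 (0.531 to 5.3) and 1.59 CPM (0.615 to 3). Its changes were -0.91 ± 0.26 (edgeR adjusted p = 0.0117) and -1.25 ± 0.25 (edgeR adjusted p = 0.00049), and the ranges overlapped.

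The other chains of type IX are Col9a2 and Col9a3. Their medians in young, vehicle and AP mice were 1.88, 0.809 and 0.716 CPM for Col9a2 and 2.11, 1.43 and 1.6 CPM for Col9a3, and neither was called by edgeR. Against young mice the log2 fold changes were -0.85 and -0.42 with vehicle, and 0.64 and 0.66 with AP. Their highest values, 28.9 and 23.1 CPM, both came from AP mouse 18, and AP mouse 19 followed with 19.4 and 14.9 CPM. Without these 2 mice both AP values changed sign, to -1.39 for Col9a2, which was then called lower (edgeR adjusted p = 0.0223), and to -0.54 for Col9a3. DESeq2 by default replaces counts that it flags as outlying in groups of this size, and whether it did so here was not examined. It called Col9a2 lower in both old groups against young mice, by -1.34 with vehicle (DESeq2 adjusted p = 0.00198) and -1.33 with AP (DESeq2 adjusted p = 0.00139). The remaining FACIT genes, Col14a1, Col19a1 and Col20a1, lay between -0.57 and 0.13 in every comparison and were not called. Col20a1 overlaps the noncoding gene 9230112E08Rik, which had 25996 reads beside its own 14338, so its level is uncertain.

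Within the 6 type VI genes, which build beaded filaments, Col6a5 stood apart. This scarce chain (ENSMUSG00000091345) had medians of 5.41 (3.46 to 9.24), 2.11 (0.61 to 8.92) and 1.35 CPM (0.637 to 3.08) in young, vehicle and AP mice. Vehicle mouse 8 alone kept a young level, and no AP mouse reached the young range, so that Col6a5 and Col11a1 were the 2 members without overlap there, beside the 0.13% of all genes. The changes against young mice were -1.23 ± 0.28 (edgeR adjusted p = 0.00159) with vehicle and -1.98 ± 0.27 (edgeR adjusted p = 1.68e-06) with AP. AP against vehicle mice gave -0.76 ± 0.26 (edgeR adjusted p = 0.0891), which was not called. It passed the threshold in 1 of 29 fits without 1 mouse, that without AP mouse 9 (edgeR adjusted p = 0.0344), and fell to -0.40 without vehicle mouse 8 (edgeR adjusted p = 0.276). The other chains, Col6a1, Col6a2, Col6a3, Col6a4 and Col6a6, lay between -0.61 and 0.24 in every comparison and were not called.

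Of the short-chain network collagens, Col8a1 (ENSMUSG00000068196), found beneath endothelia, had medians of 216 (109 to 261), 127 (51.2 to 171) and 101 CPM (45.7 to 255). It was lower in both old groups, by -0.76 ± 0.22 (edgeR adjusted p = 0.0121) and -0.87 ± 0.21 (edgeR adjusted p = 0.00331), with overlapping ranges. Its partner Col8a2 (ENSMUSG00000056174) had medians of 38.2 (16.2 to 56.6), 27.4 (12.0 to 47.8) and 19.9 CPM (8.96 to 49.7) and was called with AP (-0.74 ± 0.23, edgeR adjusted p = 0.0193). For vehicle mice the value was -0.45 ± 0.24 (edgeR adjusted p = 0.187), and without AP mice 18 and 19 the call with AP was lost (edgeR adjusted p = 0.0508).

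Col10a1 (ENSMUSG00000039462, chr10:34389981-34397085, plus strand), the collagen of hypertrophic cartilage, showed no call but 2 extreme mice. Its median was 2.34 CPM (1.67 to 18.3) in young, 2.26 (1.46 to 9.53) in vehicle and 2.2 (0.971 to 122) in AP mice, so the medians were close while AP mice 18 and 19 had 122 and 53.5 CPM. The log2 fold change of AP against vehicle mice was 1.95 ± 0.68 (edgeR adjusted p = 0.0944) with all mice and turned to -0.42 without these 2. In the same 2 mice the chondrocyte markers summed to 1881 and 1522 CPM, the highest of all mice, and the osteocyte markers to 283 and 289 CPM, the lowest. Col10a1 lies within Nt5dc1, which had 28440 reads beside 19933 of Col10a1, and the strand setting of the counting is not given in the sources used here. Against young mice the values were -0.41 ± 0.70 with vehicle (edgeR adjusted p = 0.737) and 1.54 ± 0.69 with AP (edgeR adjusted p = 0.113). The AP value turned to -0.83 without mice 18 and 19 and to -0.34 by DESeq2, which also gave 0.0887 with vehicle and -0.43 for AP against vehicle mice.

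Transmembrane and multiplexin collagens contributed 1 call each. Col13a1 (ENSMUSG00000058806), a transmembrane chain of cell contacts, had medians of 81.2 (54.2 to 130), 56.3 (14.9 to 123) and 40.4 CPM (8.79 to 98.2) and was lower with AP (-1.16 ± 0.29, edgeR adjusted p = 0.00445). With vehicle the value was -0.64 ± 0.30 (edgeR adjusted p = 0.133). Col15a1 (ENSMUSG00000028339), a chain of the basement membrane zone, had medians of 82.5 (45.8 to 120), 61.9 (35.01 to 74.8) and 49.6 CPM (17.1 to 81.7). Every old mouse lay below its young median, and it was called with AP (-0.75 ± 0.18, edgeR adjusted p = 0.00355) but not with vehicle (-0.50 ± 0.19, edgeR adjusted p = 0.0561). Col17a1, Col23a1, Col25a1 and Col18a1 were not called, and neither were Col26a1 and Col28a1, which belong to no larger class. Col26a1 had the smallest unadjusted p of all members between AP and vehicle mice (0.0014), with -0.69 ± 0.20 and an edgeR adjusted p of 0.063.

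The members that were higher in old mice encode chains of basement membranes and of the fibrils that anchor them. Col7a1 (ENSMUSG00000025650, chr9:108953586-108984875, plus strand), which forms anchoring fibrils, had medians of 12.2 (7.18 to 32.5), 28.7 (6.56 to 54.7) and 21.5 CPM (5.94 to 32.3) in young, vehicle and AP mice. In 11 of 13 vehicle and 12 of 16 AP mice it lay above the young median, and the ranges overlapped. The increase with vehicle was 2.21-fold (log2 fold change 1.14 ± 0.28, edgeR adjusted p = 0.00301). With AP the value was 0.54 ± 0.26 against young mice (edgeR adjusted p = 0.149) and -0.60 ± 0.25 against vehicle mice (edgeR adjusted p = 0.146).

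The summed skeletal muscle markers had medians of 34932 CPM (14068 to 82863) in young, 57822 (13042 to 96458) in vehicle and 38836 (6360 to 77224) in AP mice, and 1 of 8, Acta1, was called higher with vehicle. The median log2 fold change of the 8 was 0.29 with vehicle and -0.22 with AP against young mice. With these markers as a covariate, Col7a1 was higher in both old groups, by 0.71 with vehicle (edgeR adjusted p = 0.00019) and 0.57 with AP (edgeR adjusted p = 0.000853).

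Col4a5 (ENSMUSG00000031274, chrX:141475385-141689234, plus strand), a type IV chain best known from kidney and muscle basement membranes, had medians of 1.88 (1.15 to 3.82), 4.09 (1.25 to 5.8) and 3.1 CPM (1.74 to 6.69). Of the vehicle mice, 7 of 13 exceeded the highest young mouse, as did 5 of 16 AP mice. It was higher by 0.80 ± 0.24 (edgeR adjusted p = 0.0148) with vehicle and 0.66 ± 0.23 (edgeR adjusted p = 0.0399) with AP. The second of these calls was kept in 12 of 28 fits that each left out 1 mouse. Col4a6 (ENSMUSG00000031273, chrX:141165403-141474076, minus strand) lies head to head with Col4a5, 1308 bases apart, and was scarcer, at medians of 0.315 (0.0846 to 0.599), 0.412 (0.125 to 1.15) and 0.467 CPM (0.118 to 1.8). It was higher with AP (1.04 ± 0.33, edgeR adjusted p = 0.0266), a call that was lost without AP mouse 18 (0.82, edgeR adjusted p = 0.0698), while the vehicle mice gave 0.59 ± 0.35 (edgeR adjusted p = 0.251).

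The abundant chains of basement membranes, Col4a1 and Col4a2, were not called in any comparison. Their young medians were 221 CPM (156 to 274) and 153 CPM (103 to 167), and against young mice the log2 fold changes lay between -0.25 and 0.15. AP against vehicle mice gave -0.34 ± 0.13 for Col4a1 (edgeR adjusted p = 0.112) and -0.36 ± 0.13 for Col4a2 (edgeR adjusted p = 0.102), both at an unadjusted p under 0.05. These genes are arranged head to head and overlap by 22 bases in the annotation of the files, and Col4a3 and Col4a4 form another head-to-head pair, 71 bases apart, with values between -0.29 and -0.03 in every comparison.

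The log2 ratio of 2 chains was also compared within mice, where library size cancels. In 5 of the 6 ratios both chains belong to 1 collagen type, and Col3a1/Col1a1 sets the chain of type III against type I. For each of 6 ratios the 3 differences between groups were tested with two-sided permutation tests of 100000 resamples, adjusted over all 18, and 10 passed an adjusted p of 0.05. The ratio Col5a2/Col5a1 had group means of 1.84 ± 0.21 (SD, n = 12), 1.29 ± 0.23 (SD, n = 13) and 1.42 ± 0.21 (SD, n = 16) in young, vehicle and AP mice. It was lower with vehicle by -0.55 and with AP by -0.42 (permutation test, adjusted p = 0.00027 for both), and 12 of 13 vehicle mice lay below the lowest young mouse. Col3a1/Col1a1 was lower by -1.69 (permutation test, adjusted p = 0.00078) and -1.34 (permutation test, adjusted p = 0.0105), which are the largest differences of the 6 ratios. By group medians the second of these gave -1.46 and missed the threshold (permutation test, adjusted p = 0.056).

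The main chains of bone changed far less against each other. Col1a1/Col1a2 had means of -0.40 ± 0.16 (SD, n = 12), -0.20 ± 0.13 (SD, n = 13) and -0.32 ± 0.13 (SD, n = 16). This ratio was higher with vehicle than in young mice by 0.20 (permutation test, adjusted p = 0.00711) and lower with AP than with vehicle by -0.12 (permutation test, adjusted p = 0.0441), with 14 of 16 AP mice below the vehicle median. The difference of the old groups was lost in 15 of 29 tests that each left out 1 mouse (for example, adjusted p = 0.0868 in the permutation test without vehicle mouse 7). AP and young mice differed by 0.09 (permutation test, adjusted p = 0.184).

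Col6a1/Col6a2 was lowest in vehicle mice, with means of 0.24 ± 0.08, 0.13 ± 0.09 and 0.24 ± 0.07 (SD). It was lower with vehicle than in young mice by -0.11 (permutation test, adjusted p = 0.0105), and with AP it was higher than with vehicle by 0.11 (permutation test, adjusted p = 0.0054), which held in all 29 tests that left out 1 mouse. Of the 16 AP mice, 15 lay above the vehicle median. Col6a3/Col6a1 was higher than in young mice with vehicle by 0.27 (permutation test, adjusted p = 0.00711) and with AP by 0.24 (permutation test, adjusted p = 0.0292). Col4a1/Col4a2, whose means were 0.63, 0.58 and 0.60, showed no difference past the threshold, with adjusted p between 0.182 and 0.552 (permutation tests).

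**Figure D4:**
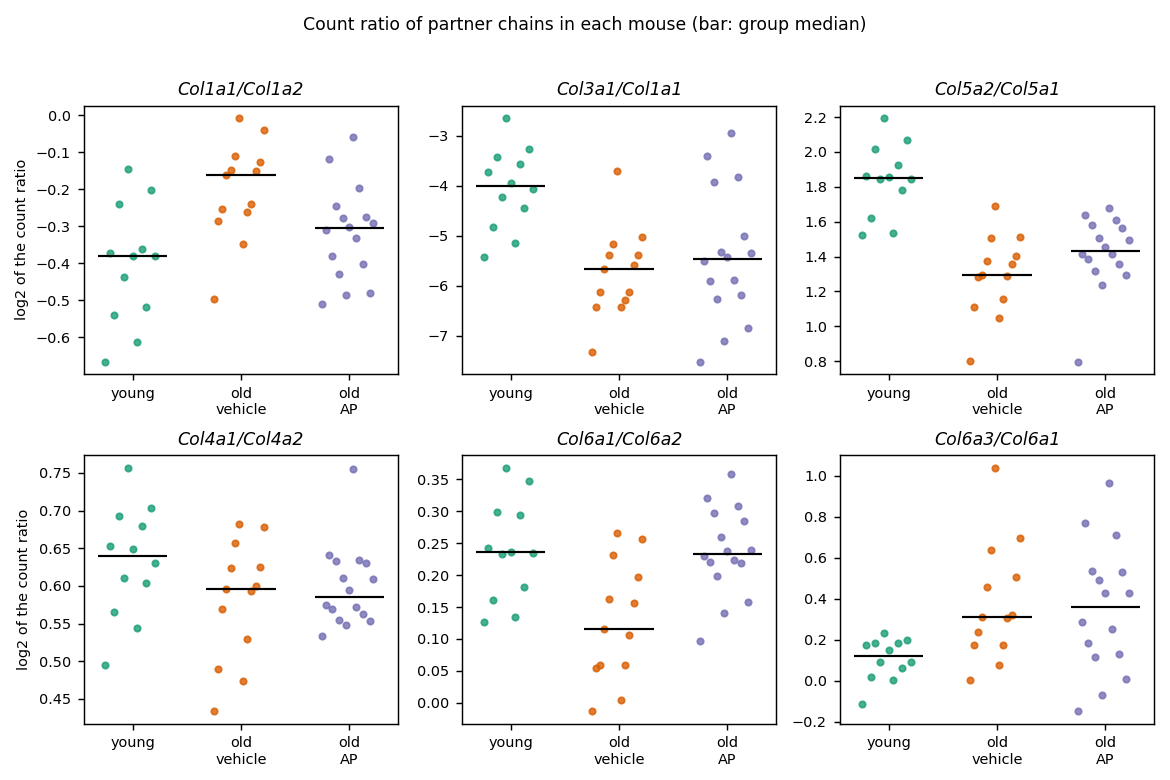
Log2 ratio of the counts of 2 chains within each mouse for 6 pairs, by group, with a bar at the group median. Col5a2/Col5a1 and Col3a1/Col1a1 lie lower in both old groups than in young mice, and Col1a1/Col1a2 and Col6a1/Col6a2 differ by at most 0.20 between group means.

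Mice of the same group also differed among themselves, and chains of one protein varied together. After group means were removed, the log2 CPM of Col1a1 and Col1a2 correlated across the 41 mice with Pearson's r = 0.989 and Spearman's rho = 0.975 (permutation within groups, adjusted p = 1.27e-05 for both). The unadjusted p of 1e-05 behind this is the smallest that 100000 resamples can give, and all points share the library total of their mouse. Values were also high for Col6a1 with Col6a2 (r = 0.993, rho = 0.988), Col4a1 with Col4a2 (r = 0.983, rho = 0.97), Col5a2 with Col5a1 (r = 0.948, rho = 0.959) and Col6a3 with Col6a1 (r = 0.918, rho = 0.917). Each had a permutation adjusted p of 1.27e-05, over 14 pairs of which 8 were added after seeing the data. Leaving out the 2 mice farthest from the median of the first chain left r between 0.884 and 0.990 for these 5 pairs.

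Col3a1 varied only loosely with type I, since with Col1a1 it gave r = 0.294 (permutation adjusted p = 0.0989) and rho = 0.328 (permutation adjusted p = 0.048), and r = 0.291 without the 2 farthest mice. Among the added pairs, Col3a1 went with Acan, the cartilage proteoglycan (r = 0.648, rho = 0.818, permutation adjusted p = 4.67e-05 and 1.27e-05, r = 0.648 without the 2 farthest mice). Within the groups r of Col3a1 with Acan was 0.820 in young, 0.785 in vehicle and 0.606 in AP mice.

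Col2a1 showed the opposite arrangement. It followed Col1a1 (r = 0.873, rho = 0.837, permutation adjusted p = 1.27e-05, r = 0.828 without the 2 farthest mice) and Col11a2 (r = 0.901, rho = 0.875, permutation adjusted p = 1.27e-05, r = 0.853). With Acan it gave r = -0.02 and rho = 0.0653 (permutation adjusted p = 0.921 and 0.696, r = -0.16 without the 2 farthest mice). Col11a1 likewise followed Col1a1 (r = 0.924, rho = 0.892, permutation adjusted p = 1.27e-05, r = 0.916).

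With Acan, Col10a1 gave r = 0.808 and rho = 0.760, and Col9a2 gave r = 0.834 and rho = 0.711 (permutation adjusted p at most 3.5e-05), and r fell to 0.558 and 0.626 without mice 18 and 19. Within the groups r was 0.633 in young, 0.326 in vehicle and 0.941 in AP mice for Col10a1, and 0.604, 0.510 and 0.939 for Col9a2. Col7a1 correlated with the muscle actin Acta1 at r = 0.868 and rho = 0.851 (permutation adjusted p = 1.27e-05, r = 0.866 without the 2 farthest mice).

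**Figure D5:**
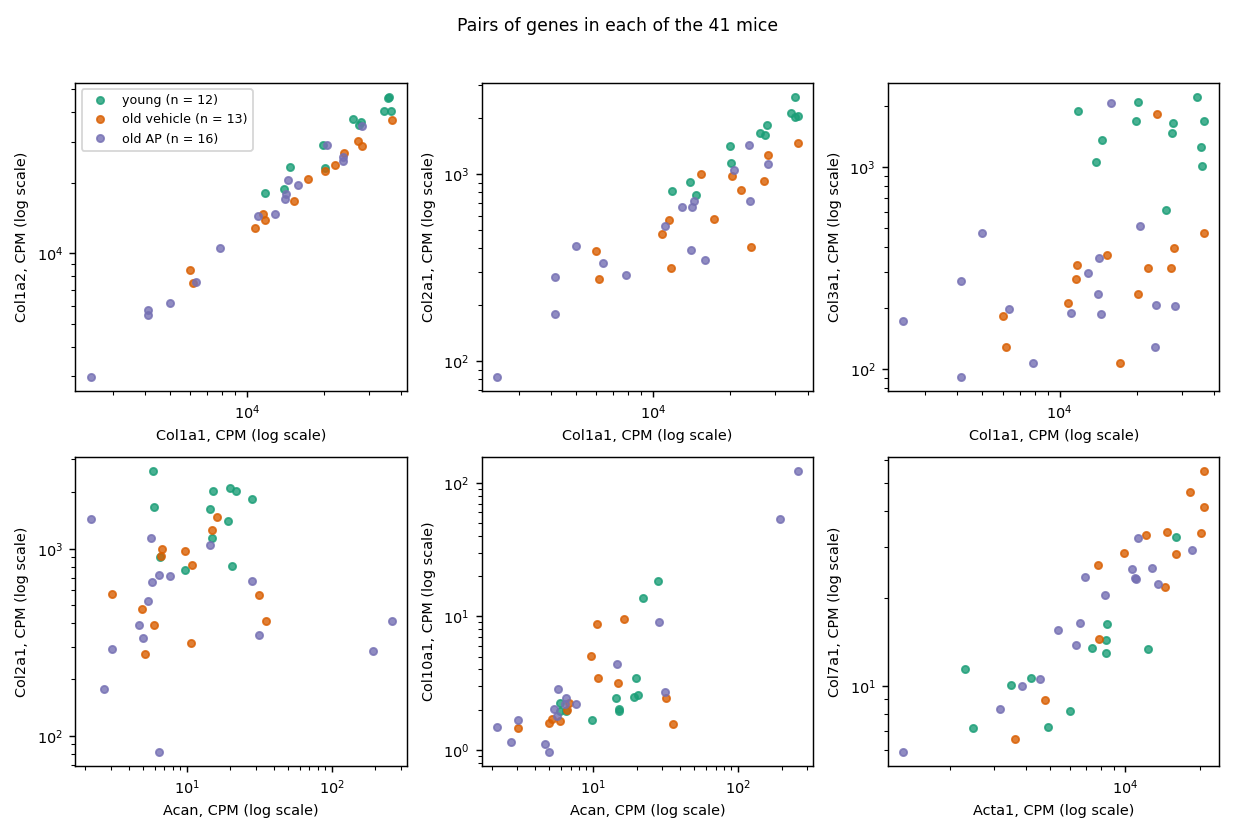
CPM (log axes) of pairs of genes in each of the 41 mice, coloured by group. The r values given here are those after group means were removed, which the panels do not show. By these, Col1a2 and Col2a1 follow Col1a1 (r = 0.989 and 0.873), Col3a1 does so weakly (r = 0.294), Col2a1 shows no relation to Acan (r = -0.02), and Col10a1 and Col7a1 follow Acan and Acta1 (r = 0.808 and 0.868).

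Correlations with summed marker lists were computed for 7 members and 14 lists, and 24 of 98 relations had a permutation adjusted p under 0.05. Acan is in the chondrocyte list and Acta1 in the skeletal muscle list, so these lists are not independent of the pairs above. Col1a1 and Col2a1 correlated most with the osteoblast markers (r = 0.847 and 0.753, rho = 0.852 and 0.753, r = 0.806 and 0.681 without the 2 farthest mice), followed by the osteoclast markers (r = 0.703 and 0.669, rho = 0.657 and 0.609, r = 0.627 and 0.577 without those mice). Within groups the order of lists varied: in AP mice the osteoclast list came first for both genes (r = 0.903 and 0.765, beside 0.891 and 0.741 for osteoblasts), and in vehicle mice Col2a1 went most with the fibroblast and stroma list (r = 0.882). Col3a1 went with tendon markers (r = 0.646, rho = 0.641, 0.637 without 2 mice) and with chondrocyte markers (r = 0.571, rho = 0.669), and which list came first differed between r and rho. Col7a1 correlated with skeletal muscle markers (r = 0.897, rho = 0.892, 0.895 without 2 mice), and Col4a5 with muscle markers at r = 0.559 (rho = 0.566) and with macrophage markers at r = -0.62 (rho = -0.61). Col10a1 correlated with chondrocyte markers at r = 0.681 (rho = 0.530), which became 0.383 without mice 18 and 19.

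The genes that process collagen were examined as lists. Among 13 genes of proline hydroxylation and folding, 0 were called with vehicle and 5 were lower with AP against young mice, led by Serpinh1 (-0.81, edgeR adjusted p = 0.00943), the collagen chaperone, and then P4ha3 (-0.67), P3h1 (-0.59) and P3h3 (-0.56), which hydroxylate proline. Of 5 genes of lysine hydroxylation and glycosylation, 1 was lower in both old groups, Plod2, the hydroxylase of telopeptide lysines (-1.06 and -1.11, edgeR adjusted p = 0.000223 and 6.37e-05). Of 8 tested secretion genes, 1 was higher with vehicle, Tmem38b (0.77, edgeR adjusted p = 0.00192), a channel of the endoplasmic reticulum, and 0 were called with AP against young mice.

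Among the enzymes that act outside the cell, Loxl2, a lysyl oxidase that cross-links collagen, was lower with vehicle (-2.13) and with AP (-2.27, edgeR adjusted p = 5.15e-08 and 1.47e-09), with medians of 179, 46.3 and 29.5 CPM in young, vehicle and AP mice. Lox was also lower in both (-0.82 and -0.98), and Loxl1 with AP (-0.75), so that 2 and 3 of 5 genes were called. Of 8 genes of propeptide cleavage, 2 were lower with vehicle, the procollagen proteases Adamts3 (-0.74) and Adamts2 (-0.53), and 4 with AP, where Bmp1 (-0.64) and Adamts14 (-0.59) joined them. Of 10 receptors and uptake genes, 4 were lower with vehicle, namely the platelet receptor Gp6 (-1.18), the integrin chains Itga11 (-0.78) and Itga10 (-0.67) and the kinase Ddr2 (-0.72), and 1 was higher, Ddr1 (0.60). With AP, Itga11 (-0.90), Itga10 (-0.75) and Ddr2 (-0.73) were lower and Lair1 (0.50) was higher. Between the old groups 0 genes of these 6 lists were called.

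The remaining marker lists show what else differed in these samples. Against young mice, 4 of 5 fibroblast and stroma markers were lower with vehicle and 3 with AP. The median of their summed level went from 2563 CPM to 1465 and 1455, in the same direction as the fibril-forming chains. Lum, which encodes a fibril-binding proteoglycan, was among them (-1.49 and -1.48). Erythroid markers were lower (3 and 2 of 6), as were B cell markers with vehicle (3 of 5, 0 with AP). Osteocyte markers moved both ways (2 higher and 1 lower with vehicle, 2 and 2 with AP), as did tendon (1 and 1, then 0 and 1) and adipocyte markers (1 and 1, then 0 and 1). Schwann cell (3 of 5) and neutrophil markers (2 of 7) were higher with AP and not called with vehicle, and endothelial, macrophage and osteoclast markers had 0 calls. Of all 14 lists, 0 markers were called between the old groups. The part that these cell types had in the collagen results was not tested beyond the covariates named above and in the closing section.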

How the data were processed

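RNA from tibial diaphyses of 41 mice was sequenced by the authors on an Illumina HiSeq instrument. The deposited table holds raw counts of reads per gene, made by the authors with TopHat2 2.0.6 and HTSeq on GRCm38, as the submitters' processing notes name them. The annotation release and the strand setting are not given in the sources used here. How reads in overlapping genes were counted is therefore not known, which touches 24 members, 7 of them with another gene above 10% of their count. Groups came from the labels. Each sample was taken as 1 mouse, as the methods of the study describe.

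The counts were analysed with edgeR 4.0.16 (R 4.3.3; trimmed mean scaling, filterByExpr, quasi-likelihood test, 1 model of 3 groups), with Benjamini-Hochberg adjustment over 19292 genes. Ratios, correlations and levels were computed with SciPy 1.17.1. Alternatives were DESeq2 1.42.0, its size factors, all genes kept, fits to each pair of groups, calls by adjusted p alone, marker covariates, group medians for ratios, longest transcripts for lengths, and each mouse left out. The osteoblast covariate, 2 pairs of left-out mice and 8 correlated pairs were added after seeing the data. The text names every member by symbol and gives full values for those called in any comparison and for Col1a1, Col1a2, Col3a1, Col2a1 and Col10a1, and up to 4 called genes of each pathway list, largest change first. Other genes with values (Ddr1, Lum, Acan and Acta1) were named after their values were seen. The members and the lists were chosen with earlier results of these data known. The scripts were tested on simulated data. No mouse was tested as an outlier, as each group had over 10 mice. DESeq2 ran with its default settings, which replace counts flagged as outlying in groups of this size.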

Additional observations from a re-analysis of the deposited data

How the results depend on the processing

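Of 995 alternative values, 902 kept their direction and their side of the threshold (or, without a test, stayed within 1 SD), 41 kept the direction and lost the threshold, 12 gained it, 11 levels per kilobase moved with the longest transcript and 29 changed sign. The 995 include counts of calls, which have no direction or threshold of their own and were classed by how far the count moved. With the osteoblast covariate 5 members were lower with vehicle and 7 with AP against young mice, and 0 were higher with AP. That last count was 1 without the filter, 0 without mice 18 and 19, 1 without mice 10 and 16, and 0 (without mouse 18) to 3 (without mouse 40) when single mice were left out. Between the old groups, 1 member (Col26a1) was lower with the haematopoietic covariate, and 0 to 2 when single mice were left out (2 without mouse 9). Over all genes, the old groups differed in 14 genes by edgeR, 200 by DESeq2, 146 with the haematopoietic covariate, 13 with DESeq2's size factors, 4 with the osteoblast covariate, 1 with the muscle covariate, and 0 without the filter, in the model of 2 groups or without either pair of mice. AP against young mice gave 1655 genes in both directions together, and 750 with the osteoblast covariate. It gave 1400 without the filter, 1315 without mice 18 and 19 and 1871 without mice 10 and 16. Vehicle against young mice gave 1748 genes, and 1503 with the osteoblast covariate. The causes were not tested.

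Signs changed for small values and also for larger ones, such as Col1a1 with AP against young mice (-0.96, called) and Col10a1 with AP against vehicle (1.95). For vehicle against young mice, the osteoblast covariate gave Col1a1 0.30, Col1a2 0.0782, Col13a1 0.0671 and Col5a1 0.0367, and Col10a1 was 0.0887 by DESeq2 and -0.64 to 0.0531 over fits without 1 mouse. For AP against vehicle, the osteoblast covariate gave Col5a2 0.0482, Col11a1 0.0244, Col12a1 0.0188 and Col24a1 0.0143. Leaving out mice 18 and 19 gave Col10a1 -0.42, Col27a1 -0.21, Col24a1 0.0691 and Col12a1 0.00837, and DESeq2 gave Col10a1 -0.43. The muscle covariate gave Col27a1 -0.17 and Col4a5 0.12, and the haematopoietic covariate gave Col3a1 0.0865. Fits without 1 mouse ran from -0.72 to 0.35 for Col3a1 (mice 10 and 16), from -0.0865 to 0.20 for Col27a1 and from -0.19 to 0.0113 for Col24a1. For AP against young mice, Col10a1 was -0.83 without mice 18 and 19, -0.34 by DESeq2 and -0.0703 with the osteoblast covariate, which also gave Col1a1 0.0759. Between the old groups, medians gave -0.0114 for Col4a1/Col4a2 and 0.0501 for Col6a3/Col6a1 (-0.0697 to 0.0259 without 1 mouse), and Col6a1/Col6a2 for AP against young mice ran from -0.0115 to 0.0104 without 1 mouse. Col5a2/Col5a1 between the old groups gained a call without mouse 24 (0.17, permutation test, adjusted p = 0.0365). No paired analysis was possible because the labels give the groups no shared mouse numbers. Reads per mouse were 119825 to 2409178 for Col1a1, whereas Col19a1 had 0 to 32. The effect of depth on the calls was not tested.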
